A study of Mus musculus with 6 samples.

Results

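The genes described here copy the genome, watch over it and divide it once a cell has left G1. They are the 112 genes whose deposited KEGG annotation holds the entry Cell cycle, less the D cyclins, Cdk4, Cdk6, the CIP/KIP inhibitors and Myc. Of 14701 genes in the tables, 120 carried the entry, and 8 of the 9 excluded G1 genes had a row. IEC 4.1, a mouse line labelled as intestinal epithelium, was left untreated (control replicates 2, 3 and 4) or exposed for 6 h to interferon-gamma (10 ng/ml; treated replicates 1, 2 and 4). The labels name no allele, and do not say whether replicates were separate cultures, so p-values measure only the spread between these libraries. Interferon-gamma is a cytokine of T cells and natural killer cells. The comparison asks whether the cell cycle genes of this line move within 6 h of it, and in which part of the machinery.

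Replication starts when the origin recognition complex and CDC6 load the MCM helicase onto DNA in G1, and CDC7, DBF4 and CDC45 switch it on in S phase. E2F proteins with their DP partners turn on many of these genes, and the pocket proteins of the RB family hold E2F back. Cyclin A and cyclin B kinases drive mitosis, the spindle checkpoint delays anaphase until chromosomes are attached, and the anaphase-promoting complex then marks securin and cyclins for destruction. TGF-beta ligands, acting through SMAD proteins, arrest many epithelial cells in G1, which is why KEGG lists them beside the cyclins.

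The libraries held 17490689 to 18678543 counts, and the members took 1.72% to 1.80% of them. The proliferation marker Mki67 had a mean of 489 CPM (a gene's counts scaled to library size) in controls and 523 CPM in treated libraries. The interferon-induced transcription factor Irf1 rose from 95.4 to 1138 CPM, which checks the labels. Of 12 epithelial markers 8 had a row, and none passed 0.533 CPM in any library, whereas 9 mesenchymal markers summed to 6490 to 6710 CPM in controls and 6070 to 6550 CPM in treated libraries. Of the 8 mesenchymal markers tested 2 rose and 6 fell, with a median log2 fold change of -0.30. Of leukocyte markers 4 of 8 had a row, summing to 22.5 to 25.4 and 20.0 to 21.8 CPM, nearly all of it Cd14, and the general leukocyte marker Ptprc lay at 0.0353 CPM in controls. In bulk RNA, fewer cells in a phase of the cycle and less RNA per cell cannot be told apart.

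Most of the machinery moved little, and the largest changes lay at its edges, in the TGF-beta input and in the regulators Rbl1, Gadd45b and Atm. Of 111 members tested, 18 rose and 16 fell (adjusted p under 0.05, edgeR), 30.6% of them, against 38.1% of all 11423 genes tested. Rises made up 16.2% of members and 19.9% of all genes, and falls 14.4% of members and 18.1% of all genes. The median absolute log2 fold change was 0.09 in the members and 0.15 over all genes tested. Only 7 members, 6.31%, were called with an absolute log2 fold change of at least 0.5, against 12.5% of all genes, and these were Smad3, Tgfb1, Tgfb2, Tgfb3, Rbl1, Gadd45b and Atm. The groups did not overlap in 47 members (42.3%) and in 48.0% of all genes. Only 2 called members overlapped, so separate groups in a called gene, mentioned below, are no further result. The 1 member left out by the low-count filter was Sfn, an epithelial 14-3-3 protein, at 0.48, 0.48 and 0.58 CPM in controls and 0.39, 0.44 and 0.53 CPM in treated libraries.

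The split between rises and falls depended on scaling and on 1 control library. Scaling by trimmed means (TMM) gave 18 rises and 16 falls, upper-quartile scaling 12 and 25, and total counts 9 and 34. All genes shifted with the scaling as the members did. The median log2 fold change was -0.041 in members and -0.044 over all genes with upper-quartile scaling, and -0.059 and -0.062 on total counts. Shares called over all genes are given for TMM only, so counts under other scalings, here and below, have no such share beside them. Without control replicate 3, there were 9 rises and 16 falls. No call changed direction in 16 alternative settings, and 19 of the 34 calls held in all of them. Those 19 include the 7 larger changes named above and Tfdp2, Orc5, Orc2, Stag2 and Mad2l1.

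**Figure D1:**
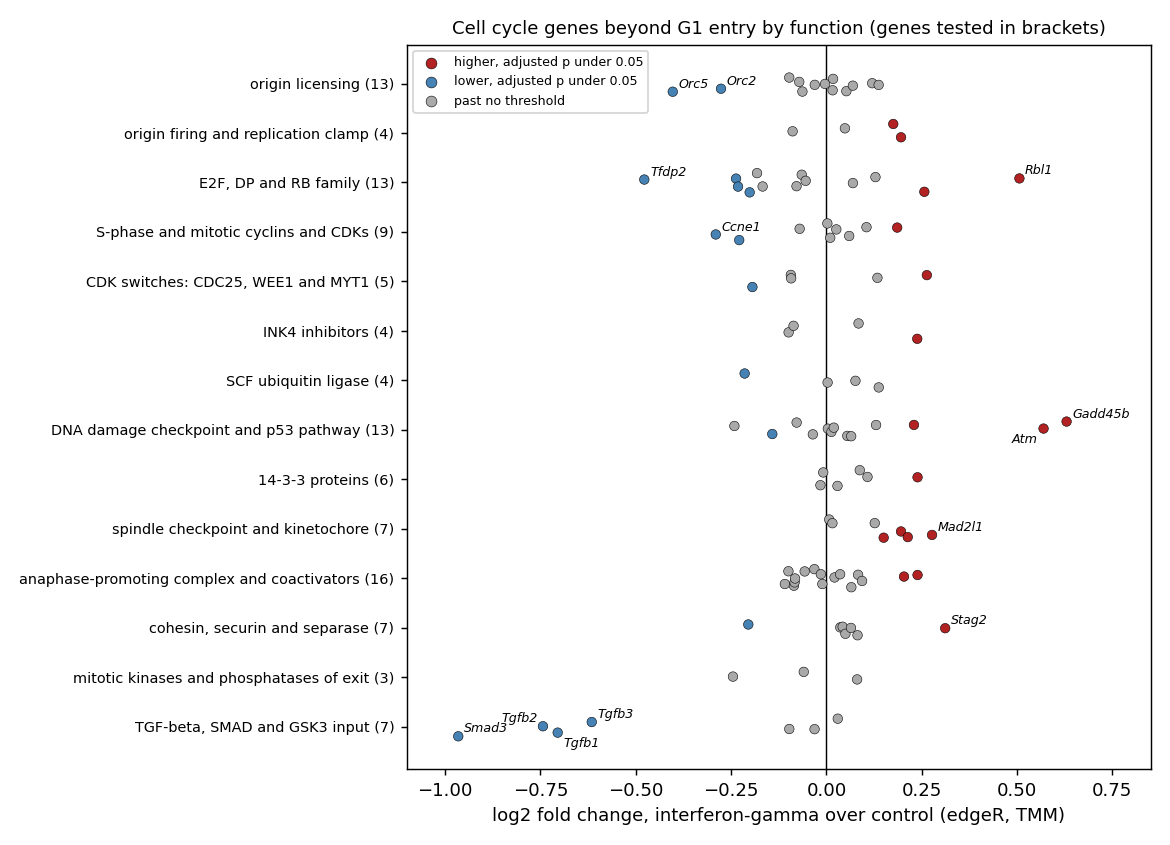
Log2 fold change (x axis, interferon-gamma over control) of each of the 111 tested members, 1 point per gene, in 14 function groups (y axis). Red points rose, blue points fell and grey points passed no threshold. Most points lie near 0, and Smad3 and the TGF-beta ligands lie farthest to the left, at -0.97 to -0.62.

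Of the 17 genes of replication origins, 2 rose, 2 fell and 13 passed no threshold. Over all genes tested, 19.9% rose and 18.1% fell, shares to be read beside every function group count below. The 6 helicase subunits were all past no threshold, with log2 fold changes from -0.10 to 0.05 and 95% intervals (limma) that together spanned -0.20 to 0.15. Mcm2 had 408, 410 and 400 CPM in controls and 378, 392 and 368 CPM in treated libraries, so the groups did not overlap although the change missed the threshold (log2 -0.10 ± 0.029, ± SE between libraries, adjusted p = 0.127). Mcm2 was called with upper-quartile scaling (log2 -0.15, adjusted p = 0.0201) and on total counts (-0.17, 0.00736), and total counts also called Mcm4 (-0.14, 0.0308) and Mcm7 (-0.14, 0.0394). Mcm3, the most abundant subunit per length at 368 ± 4.29 TPM (counts scaled by gene length and library; mean ± SD, n = 3) in controls, had log2 0.02. The loading factor Cdc6 had 81.1 ± 2.99 CPM in controls and 80.8 ± 0.615 CPM with interferon-gamma. Its log2 fold change was 0.00 (95% interval -0.11 to 0.11).

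The only licensing genes called were 2 subunits of the origin recognition complex, and both fell. Orc5 had 26.6, 26.1 and 28.7 CPM in controls and 20.7, 18.2 and 22.7 CPM in treated libraries, and fell (log2 -0.40 ± 0.101, adjusted p = 0.000432). Orc2 had 139, 158 and 137 CPM in controls and 117, 114 and 127 CPM in treated libraries, and fell (log2 -0.28 ± 0.080, adjusted p = 0.000938). For both subunits every treated library lay below every control library. The other subunits had log2 0.12 (Orc1), 0.14 (Orc3), 0.07 (Orc4) and -0.03 (Orc6), and none passed the threshold. With a replicate block, which compares only replicates 2 and 4 of each group, Orc4 was called higher (log2 0.21, adjusted p = 0.0461). Per length, the 6 subunits ran in controls from 20.0 ± 1.39 TPM for Orc1 to 120 ± 3.71 TPM for Orc6, so Orc2 at 72.5 ± 7.41 TPM was among the more abundant and Orc5 at 24.9 ± 1.79 TPM among the scarcer.

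Both risen origin genes act when the helicase is switched on. Cdc45, a part of the active helicase, had 115, 105 and 109 CPM in controls and 122, 128 and 126 CPM in treated libraries (log2 0.20 ± 0.043, adjusted p = 0.00535). The kinase Cdc7 went from 34.8 ± 0.319 to 39.4 ± 2.21 CPM (log2 0.18, adjusted p = 0.0346), while its partner Dbf4 had log2 -0.09 and passed no threshold. Dbf4 was called lower on total counts (-0.16, adjusted p = 0.0362) and with treated replicate 4 left out (-0.14, 0.0461). The Cdc45 call was lost on total counts and without control replicate 3 (adjusted p 0.00278 to 0.0635 over the alternatives). The Cdc7 call was lost in 10 of 16 alternatives (0.0333 to 0.21), among them each left-out control and treated replicates 1 and 4. The sliding clamp Pcna, the most abundant of these genes per length at 758 ± 24.9 TPM in controls, had log2 0.05 (95% interval -0.06 to 0.15). Summed TPM of the 6 helicase subunits was 1480, 1520 and 1480 in controls and 1410, 1370 and 1330 in treated libraries. TPM is not corrected for the new interferon transcripts, and the median gene tested lay 0.10 lower on the log2 scale in treated libraries by that measure.

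**Figure D2:**
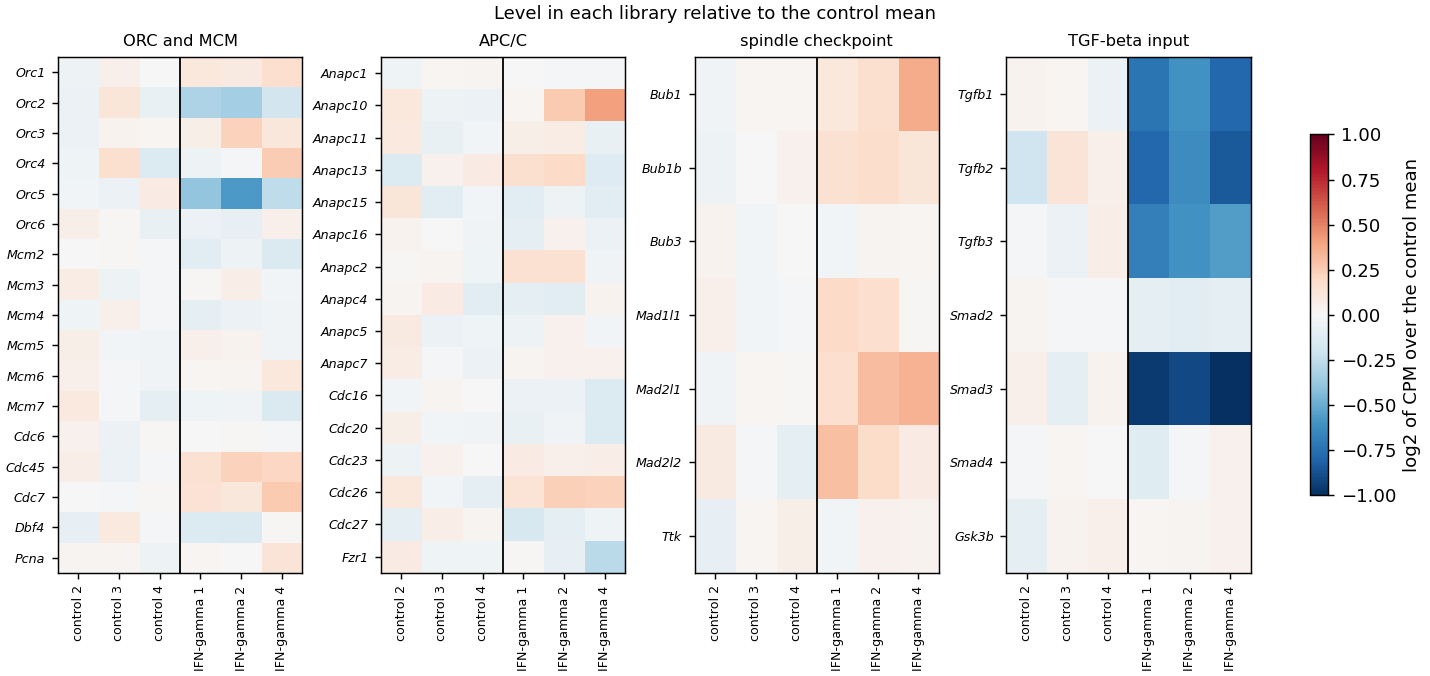
Colour gives the log2 of CPM in each library (columns) over the control mean, for origin, anaphase-promoting complex, spindle checkpoint and TGF-beta input genes (rows); blue is lower and red higher, and the scale ends at -1 and 1. Orc2 and Orc5 stand out as blue among pale origin genes, and Smad3 and the 3 ligands are dark blue in every treated library.

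Origin genes are known E2F targets, so their promoter letters are shown beside those of genes that moved, as a description with no test. RefSeq windows of 300 bases on GRCm38.p6 (250 before the start and 50 after) were matched for 92 of 112 members. The E2F-like letters GCGGGAA or GCGCCAA, on either strand, were in 28.3% of these 92 members, in 14.6% of 9159 tested genes and in 7.79% of all 27025 genes with a window. They were in 8 of 16 origin genes, 7 of them licensing genes, and in 0 of 4 genes of the TGF-beta input. A CCAAT box was in 57.6% of members and 44.0% of tested genes, the CHR-like TTTGAA in 25.0% and 14.2%, and the GAS-like TTCNNNGAA in 7.61% and 8.39%. E2F-like letters were in 4 of 16 risen members, 1 of 14 fallen members and 21 of 61 past no threshold. The GCGCCAA form contains CCAA and overlaps a CCAAT box where a T follows. Stretches of 250 bases before the start are given for Mcm5 (chr8:75109259-75109508, plus strand) and Mcm6 (chr1:128359706-128359955, minus strand), helicase genes that hold the E2F-like letters. Beside them stand Smad3 (chr9:63757995-63758244, minus strand) and Tgfb1 (chr7:25686752-25687001, plus strand), of the TGF-beta input, which fell, and Rbl1 (chr2:157204535-157204784, minus strand), which rose. Capitals mark every match to the 4 motif searches, and the rest is in lower case.
Mcm5: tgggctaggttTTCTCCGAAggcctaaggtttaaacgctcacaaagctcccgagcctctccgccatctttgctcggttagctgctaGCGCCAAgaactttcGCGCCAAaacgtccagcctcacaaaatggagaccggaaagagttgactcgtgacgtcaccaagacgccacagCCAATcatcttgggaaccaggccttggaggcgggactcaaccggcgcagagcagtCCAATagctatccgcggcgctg
Mcm6: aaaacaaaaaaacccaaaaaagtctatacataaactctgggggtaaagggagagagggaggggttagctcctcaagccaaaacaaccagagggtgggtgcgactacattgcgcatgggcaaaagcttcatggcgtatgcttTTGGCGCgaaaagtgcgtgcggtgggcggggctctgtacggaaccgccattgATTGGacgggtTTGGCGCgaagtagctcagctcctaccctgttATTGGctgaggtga
Smad3: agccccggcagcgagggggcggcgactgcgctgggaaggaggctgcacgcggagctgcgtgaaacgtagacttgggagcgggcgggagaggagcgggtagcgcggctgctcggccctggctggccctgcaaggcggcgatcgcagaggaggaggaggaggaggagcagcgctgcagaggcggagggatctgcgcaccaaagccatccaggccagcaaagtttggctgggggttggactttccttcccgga
Tgfb1: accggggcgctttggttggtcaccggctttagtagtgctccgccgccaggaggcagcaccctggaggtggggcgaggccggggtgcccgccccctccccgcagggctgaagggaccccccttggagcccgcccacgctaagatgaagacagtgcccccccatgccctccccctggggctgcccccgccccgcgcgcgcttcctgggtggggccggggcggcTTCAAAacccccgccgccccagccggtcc
Rbl1: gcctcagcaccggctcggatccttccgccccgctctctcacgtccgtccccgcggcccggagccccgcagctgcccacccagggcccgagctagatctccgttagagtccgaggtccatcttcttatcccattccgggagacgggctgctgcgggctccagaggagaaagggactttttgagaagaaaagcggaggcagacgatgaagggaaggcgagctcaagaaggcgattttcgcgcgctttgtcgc
In Mcm5 the E2F-like letters begin 164 and 149 bases before the start, with CCAAT boxes at 77 and 22 bases and a GAS-like match at 239 bases. In Mcm6 they begin at 109 and 46 bases, with CCAAT boxes at 57 and 14 bases. Tgfb1 has a CHR-like match at 29 bases, and Smad3 and Rbl1 have no match in the stretch shown. A match is not evidence of binding, and no match says only that these letters are not in this window.

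Among E2F, DP and RB family genes, grouped with Abl1, Hdac1 and Hdac2, 2 rose, 4 fell and 7 passed no threshold of 13 tested. Abl1 is 1 of the 4 falls. The pocket protein gene Rbl1, which encodes p107, a partner of repressor E2F proteins, rose most. It had 79.5, 83.0 and 83.9 CPM in controls and 119, 110 and 121 CPM in treated libraries, a log2 fold change of 0.51 ± 0.048 (adjusted p = 1.62e-07). Its relatives passed no threshold: Rb1 had log2 -0.17 (adjusted p = 0.109) and Rbl2 0.13 (adjusted p = 0.131). Rb1 was called lower with upper-quartile scaling (log2 -0.22, adjusted p = 0.0339) and on total counts (-0.24, 0.0207), and Rbl2 higher without control replicate 4 (0.19, 0.0481). Rbl1 (chromosome 2, 157145893 to 157204534) lies 10797 bases from Samhd1, an antiviral gene that rose from 168 to 1140 CPM (adjusted p = 1.83e-20). Whether transcripts of that neighbour add to the Rbl1 counts was not tested.

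The DP subunit Tfdp2 fell from 45.5, 46.7 and 44.4 CPM to 31.5, 32.3 and 34.4 CPM (log2 -0.48 ± 0.043, adjusted p = 2.52e-06), with no overlap between groups. The other DP gene, Tfdp1, had log2 -0.06 (95% interval -0.17 to 0.04) and was called lower on total counts (-0.14, adjusted p = 0.0438). The activator E2f3 had log2 -0.23 ± 0.047 (a fall, adjusted p = 0.0044), and E2f4, which usually acts with pocket proteins as a repressor, had log2 -0.20 ± 0.052 (a fall, adjusted p = 0.00468). The activator E2f2 rose from 22.0 ± 1.24 to 26.2 ± 0.690 CPM (log2 0.26, adjusted p = 0.00692). Its call was lost with a replicate block and without control replicate 3 (adjusted p 0.00568 to 0.0773 over the alternatives). E2f1, the best known activator, had 86.3, 78.8 and 82.4 CPM in controls and 80.4, 82.6 and 75.1 CPM in treated libraries, overlapping groups (log2 -0.05, 95% interval -0.17 to 0.07). The kinase Abl1 fell (log2 -0.24 ± 0.084, adjusted p = 0.00379). Abl1 had 146 CPM in controls and 124 CPM in treated libraries. It ends at 31807093 on chromosome 2, past the start of Qrfp at 31806168, and Qrfp fell from 3.29 to 1.2 CPM. Strand-specific counting is not stated in the sources used here, so reads within this shared stretch cannot be told apart. E2f5 was past no threshold (log2 -0.18, adjusted p = 0.0597) and was called lower in 4 alternatives.

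S-phase and mitotic cyclins and their kinases moved little, with 1 of 9 risen and 2 fallen. Ccne1, the cyclin that starts S phase with Cdk2, had 26.2, 21.1 and 24.0 CPM in controls and 20.4, 19.3 and 18.5 CPM in treated libraries, a fall (log2 -0.29 ± 0.099, adjusted p = 0.00892). That call was lost without control replicate 2, the highest control (adjusted p 0.00104 to 0.0599 over the alternatives). Its paralog Ccne2 had log2 -0.07 (95% interval -0.23 to 0.08) and was called lower without treated replicate 4 (log2 -0.17, adjusted p = 0.0309). The mitotic cyclin Ccnb2 rose from 108 ± 3.98 to 123 ± 1.22 CPM (log2 0.19, adjusted p = 0.00633). This call was lost on total counts and without control replicate 4 (0.00366 to 0.0875). Ccnb1, the main mitotic cyclin, had 286 ± 6.00 and 286 ± 6.81 CPM (log2 0.00, 95% interval -0.10 to 0.10). Ccna2 had log2 0.01, Cdk1 0.06 and Cdk2 0.03, all with interval bounds inside 0.25 of 0. Signs of values this small turned on other scalings: Ccna2 was at -0.06, Ccnb1 at -0.07 and Cdk2 at -0.05 on total counts. Cdk7, of the kinase that activates the others, fell (log2 -0.23 ± 0.055, adjusted p = 0.00468), with the call lost under a replicate block.

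The phosphatases and kinases that switch these CDKs on and off moved in both directions, 1 higher and 1 lower of 5. Cdc25b, a phosphatase that starts mitosis, went from 193 ± 1.88 to 169 ± 8.29 CPM (log2 -0.19, adjusted p = 0.00462). Its relative Cdc25c went from 27.5 ± 1.67 to 33.0 ± 1.85 CPM (log2 0.26, adjusted p = 0.00517), a call lost without control replicate 3 (adjusted p 0.00262 to 0.0515 over the alternatives). Cdc25a and the inhibitory kinase Wee1 had log2 -0.09 each and passed only on total counts. Pkmyt1 had log2 0.13, and was called higher when control replicate 2 (0.20, adjusted p = 0.0395) or treated replicate 4 (0.17, 0.0487) was left out.

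The INK4 inhibitors block Cdk4 and Cdk6, and 1 of 4 rose. Cdkn2d, which encodes p19, had 36.2, 36.2 and 34.7 CPM in controls and 43.8, 42.9 and 39.6 CPM in treated libraries, all above the controls (log2 0.24 ± 0.048, adjusted p = 0.00486). Cdkn2a, the source of p16 and ARF, was far more abundant per length, at 631 ± 34.9 TPM in controls against 59.0 ± 1.79 TPM for Cdkn2d. Its CPM of 266, 227 and 245 in controls and 261, 282 and 239 in treated libraries overlapped (log2 0.08, adjusted p = 0.321), and it was called without treated replicate 4 (0.14, adjusted p = 0.0492). Cdkn2b had log2 -0.09 and Cdkn2c -0.10, and Cdkn2c was called lower on total counts (-0.17, adjusted p = 0.0428). Of the SCF ubiquitin ligase, which destroys cyclin-dependent kinase inhibitors, 1 of 4 genes was called, the substrate receptor Skp2. It went from 87.3 ± 4.83 to 75.3 ± 1.29 CPM (log2 -0.21, adjusted p = 0.00433), a call lost under a replicate block (adjusted p = 0.0509, range 0.000405 to 0.0509). Skp2 overlaps Lmbrd2, at 29.7 CPM in controls and 34.5 CPM in treated libraries, and whether reads are shared was not tested. The adaptor Skp1a had 231, 242 and 222 CPM in controls and 233, 247 and 283 CPM in treated libraries (log2 0.14, adjusted p = 0.0904). It was called higher with the block (0.22, adjusted p = 0.0108) and with treated replicate 1 left out (0.19, 0.0267). The scaffold Cul1 had log2 0.00 and the RING subunit Rbx1 0.08.

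In the DNA damage checkpoint and p53 pathway 3 of 13 genes rose and 1 fell. Gadd45b, a stress-induced gene that acts on p38 and JNK signalling, had 78.0, 69.5 and 77.7 CPM in controls and 112, 122 and 115 CPM in treated libraries (log2 0.63 ± 0.065, adjusted p = 1.46e-08). Atm, the kinase that senses double-strand breaks, had 65.1, 71.1 and 74.9 CPM in controls and 107, 99.0 and 107 CPM in treated libraries (log2 0.57 ± 0.070, adjusted p = 1.09e-07). In both genes every treated library lay above every control library. Npat, which begins 61 bases from Atm on chromosome 9, had log2 0.10 (adjusted p = 0.217).

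The other damage kinases did not pass: Atr had log2 -0.08, Chek1 0.01, Chek2 0.13 and Prkdc 0.00. The GADD45 family split. Gadd45g rose from 18.5 ± 1.73 to 21.7 ± 1.04 CPM (log2 0.23, adjusted p = 0.0314), a call lost in 9 of 16 alternatives, including both controls 3 and 4 and treated replicates 1 and 2 left out (adjusted p 0.00915 to 0.198). Gadd45a, the p53 target of the family, had 9.09, 7.62 and 7.28 CPM in controls and 6.12, 6.39 and 7.83 CPM in treated libraries (log2 -0.24, adjusted p = 0.137). It was called lower on total counts (log2 -0.31, adjusted p = 0.0473) and without treated replicate 4 (-0.35, 0.0366). Trp53 itself fell from 301 ± 6.44 to 273 ± 15.8 CPM (log2 -0.14, adjusted p = 0.038), which was lost in 6 of 16 alternatives, among them controls 2 and 4 and treated replicates 1 and 4 left out (0.0023 to 0.123). Mdm2, which degrades p53 and is induced by it, had log2 0.06 (95% interval -0.06 to 0.19). The coactivators Crebbp and Ep300 had log2 0.05 and 0.02.

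**Figure D3:**
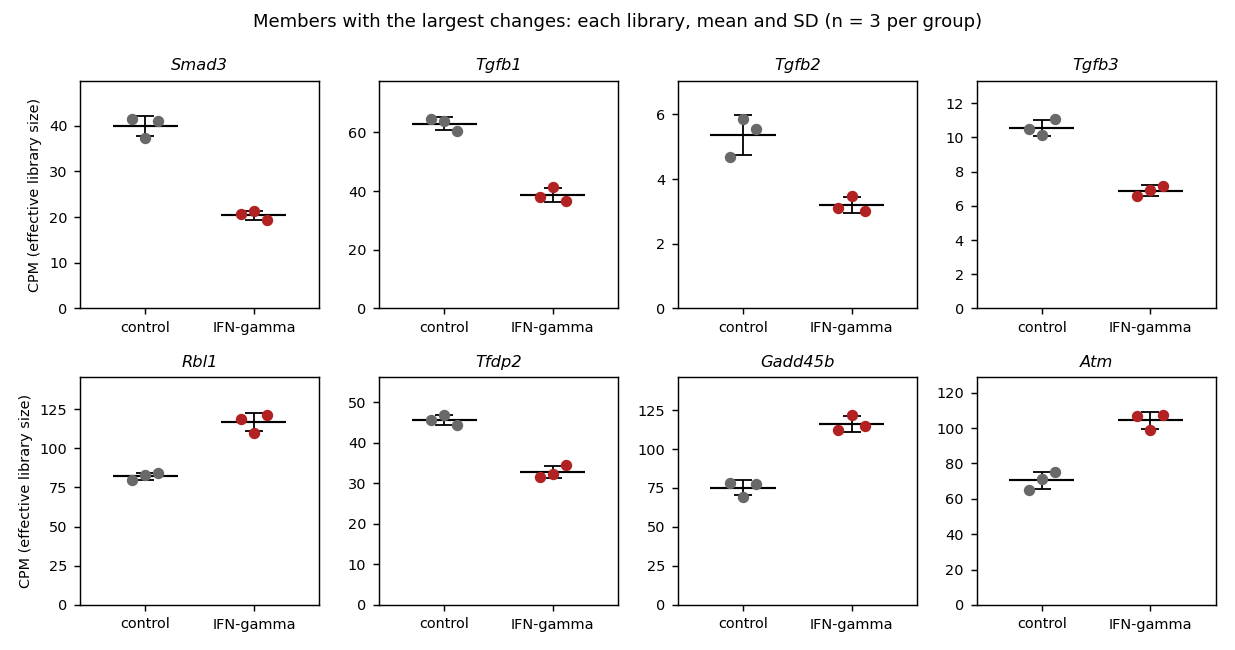
CPM (y axis, from 0) of 8 members in each library: points are libraries, lines the mean and bars the SD (n = 3 per group). The 8 were chosen for their large changes, so separate control and interferon-gamma libraries in all of them are no further result. Groups did not overlap in 48.0% of all genes tested. Smad3 lies at 37.4 to 41.5 CPM in controls and 19.4 to 21.4 CPM in treated libraries.

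Of the 14-3-3 proteins, which hold phosphorylated CDC25 in the cytoplasm, 1 of 6 tested rose. Ywhag had 433, 427 and 444 CPM in controls and 515, 542 and 481 CPM in treated libraries (log2 0.24 ± 0.053, adjusted p = 0.00104). Ywhaz, at 1131 ± 15.2 CPM in controls, had log2 -0.01 (95% interval -0.10 to 0.09). The remaining 4 tested had log2 fold changes of -0.02 (Ywhab), 0.03 (Ywhaq), 0.09 (Ywhae) and 0.11 (Ywhah).

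Of spindle checkpoint genes 4 of 7 rose and none fell, where 19.9% of all genes tested rose and 18.1% fell. Their median log2 fold change was 0.15 against 0.01 over all genes tested. Mad2l1, which sequesters the anaphase activator Cdc20, had 111, 115 and 114 CPM in controls and 127, 141 and 145 CPM in treated libraries (log2 0.28 ± 0.058, adjusted p = 0.000387). The kinase Bub1 went from 94.0 ± 2.06 to 109 ± 10.8 CPM (log2 0.21, adjusted p = 0.00974) and Bub1b, which encodes BUBR1, from 200 ± 6.48 to 222 ± 3.65 CPM (log2 0.15, adjusted p = 0.0204). Mad2l2, a relative of Mad2l1 that also serves DNA repair, went from 32.0, 29.7 and 28.2 CPM to 37.0, 34.1 and 31.8 CPM, overlapping by 1 library (log2 0.20, adjusted p = 0.0374). It lies 12 bases from Fbxo6, which rose from 17.7 to 26.0 CPM, and whether that rise adds to Mad2l2 counts was not tested. Bub3, Ttk and Mad1l1 had log2 0.01, 0.02 and 0.13, and Mad1l1 was called higher with treated replicate 4 left out (0.18, adjusted p = 0.016).

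How many of these calls held depended on the setting. On total counts 1 of 7 was called, Mad2l1, and with upper-quartile scaling or without control replicate 3, 2 of 7. The Bub1 call was lost on total counts and without treated replicate 4 (adjusted p 0.00287 to 0.0773 over the alternatives). Bub1b lost its call in 8 of 16 alternatives (0.0099 to 0.23), controls 2 and 3 and treated replicates 1 and 2 left out among them, and Mad2l2 in 9 (0.00819 to 0.231), controls 3 and 4 and treated replicates 1 and 2 left out among them.

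In the anaphase-promoting complex, the ubiquitin ligase that the checkpoint restrains, 2 of 16 genes rose and none fell, with a median log2 fold change of -0.01. Cdc26, a small scaffold subunit, had 42.9, 39.2 and 37.4 CPM in controls and 43.8, 47.0 and 46.8 CPM in treated libraries (log2 0.20 ± 0.067, adjusted p = 0.0176). Anapc10, which helps bind substrates, had 27.3, 24.5 and 24.4 CPM in controls and 25.8, 30.5 and 33.8 CPM in treated libraries, overlapping groups (log2 0.24 ± 0.125, adjusted p = 0.0327). Its span on chromosome 8 begins at 79711736 and that of Abce1 ends at 79711740, so they meet only at the ends. Abce1 had 651 CPM in controls and 593 CPM in treated libraries, and whether reads are shared was not tested. On total counts and with upper-quartile scaling neither was called, and 4 and 3 genes of the complex fell instead, Cdc20, Cdc16 and Cdc27 in both. Without control replicate 3 none was called; Cdc26 was also lost without control replicate 4 or treated replicate 2 (adjusted p 0.0051 to 0.142), and Anapc10 without control replicate 4 or treated replicates 2 or 4 (0.00292 to 0.168).

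The coactivators that choose its substrates were past no threshold. Cdc20, which starts anaphase, had 225, 211 and 210 CPM in controls and 204, 209 and 196 CPM in treated libraries (log2 -0.08, adjusted p = 0.221). Fzr1, which keeps the complex active in G1, had 93.5, 85.9 and 85.6 CPM in controls and 89.2, 83.3 and 73.1 CPM in treated libraries (log2 -0.11, adjusted p = 0.206). Fzr1 was called lower on total counts (-0.18, adjusted p = 0.0348), with a replicate block (-0.20, 0.028) and without treated replicate 1 (-0.19, 0.0397). Anapc2 had log2 0.09 and was called higher with treated replicate 4 left out (0.15, adjusted p = 0.0174). Among the core subunits Anapc1 had log2 -0.01 and Anapc5 -0.01, and the widest 95% intervals of the 14 core subunits together ran from -0.24 to 0.42.

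Cohesin holds sister chromatids together until separase cuts it, and of 7 genes of this step 1 rose and 1 fell. Espl1, the separase protease, had 284, 299 and 313 CPM in controls and 274, 265 and 237 CPM in treated libraries (log2 -0.20 ± 0.075, adjusted p = 0.00765), and its inhibitor securin, Pttg1, had log2 0.08 (adjusted p = 0.282). The cohesin subunit Stag2 had 118, 137 and 130 CPM in controls and 154, 152 and 172 CPM in treated libraries (log2 0.31 ± 0.084, adjusted p = 0.000337). Its alternative subunit Stag1, whose counts were not whole numbers in 6 of 6 libraries, had log2 0.06, and the ring subunits Smc1a, Smc3 and Rad21 had 0.04, 0.05 and 0.04. Of the mitotic kinase Plk1 and the phosphatases Cdc14a and Cdc14b none passed. Cdc14a, with 10.6 ± 0.842 CPM in controls and 8.94 ± 0.711 CPM in treated libraries (overlapping groups), had the largest change of the members past no threshold (log2 -0.25, adjusted p = 0.0707). It was called lower in 4 alternatives: upper-quartile scaling (-0.30, adjusted p = 0.026), total counts (-0.32, 0.0207), control replicate 2 left out (-0.31, 0.0362) and treated replicate 1 left out (-0.32, 0.0399). Plk1 had 175, 161 and 166 CPM in controls and 163, 167 and 150 CPM in treated libraries (log2 -0.06, 95% interval -0.17 to 0.05).

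The TGF-beta input held the largest falls: 4 of 7 genes fell and none rose, with a median log2 fold change of -0.62. Over all genes tested, 18.1% fell and 19.9% rose. Smad3 (chromosome 9, 63646766 to 63757994), the receptor-activated SMAD, had 41.5, 37.4 and 40.9 CPM in controls and 20.6, 21.4 and 19.4 CPM in treated libraries. It fell by 48.8% (log2 -0.97 ± 0.062, adjusted p = 3.48e-10). All treated libraries lay near 20 CPM, well below every control. Smad2, the other SMAD that TGF-beta receptors activate, had log2 -0.10 (adjusted p = 0.161) and was called with upper-quartile scaling (-0.15, 0.0284) and on total counts (-0.17, 0.0151). The shared partner Smad4 had log2 -0.03 and the kinase Gsk3b 0.03.

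All 3 ligands fell. Tgfb1 (chromosome 7, 25687002 to 25705077) had 64.6, 63.8 and 60.6 CPM in controls and 37.9, 41.3 and 36.6 CPM in treated libraries (log2 -0.70 ± 0.059, adjusted p = 7.69e-09). Tgfb3 had 10.5, 10.1 and 11.1 CPM in controls and 6.56, 6.94 and 7.18 CPM in treated libraries (log2 -0.62 ± 0.053, adjusted p = 5.72e-05). Tgfb2, the scarcest, had 4.68, 5.86 and 5.54 CPM in controls and 3.11, 3.47 and 3.00 CPM in treated libraries (log2 -0.74 ± 0.113, adjusted p = 0.000294). In each ligand the groups were separate. Per length Tgfb1 made up most of the ligand RNA, at 54.4 ± 1.71 of a summed 61.8 ± 1.84 TPM in controls, and the sum was 35.2 ± 1.84 TPM with interferon-gamma. In TPM the median gene tested also lay lower in treated libraries, by 0.10 on the log2 scale. These 4 calls held in all 16 alternatives, with Smad3 between -1.04 and -0.93, Tgfb1 between -0.78 and -0.67, Tgfb2 between -0.83 and -0.65 and Tgfb3 between -0.69 and -0.59.

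Genes that cycling cells use but KEGG does not list here moved little as well. Of 39 such proliferation genes 10 rose, 2 fell and 27 passed no threshold, with a median log2 fold change of 0.07. Over all genes tested, 19.9% rose and 18.1% fell, with a median of 0.01. The clamp loader subunit Rfc3 rose from 61.0 to 103 CPM (log2 0.75, adjusted p = 1.39e-10), topoisomerase Top2a from 794 to 1126 CPM (log2 0.50) and the spindle protein Nusap1 from 122 to 169 CPM (log2 0.47). Thymidine kinase Tk1 fell by 0.15 and cyclin F, Ccnf, by 0.25 on the log2 scale. Rises numbered 6 with upper-quartile scaling, 5 on total counts and 6 without control replicate 2, and falls 4 with either scaling. Falls numbered 1 when control replicate 2, or treated replicate 2, was left out. Calls in all numbered 7 without control replicate 2.

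Of 16 tested targets of p53 outside the entry, 3 rose and 4 fell, with a median log2 fold change of -0.09. Over all genes tested, 38.1% were called, 19.9% as rises and 18.1% as falls. The receptor gene Eda2r rose from 3.64 to 11.5 CPM (log2 1.65, adjusted p = 3.14e-10), while the exonuclease Aen fell by 0.55, the kinase Plk2 by 0.33, Phlda3 by 0.35 and Zmat3 by 0.29 on the log2 scale. Rises numbered 1 on total counts, with DESeq2, and without control replicate 2 or treated replicates 1 or 2; falls numbered 7 on total counts and with upper-quartile scaling. The 8 excluded G1 genes tested, by contrast in size, had 5 rises and 2 falls, from log2 -1.05 for Ccnd1 to 1.32 for Cdk6.

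**Figure D4:**
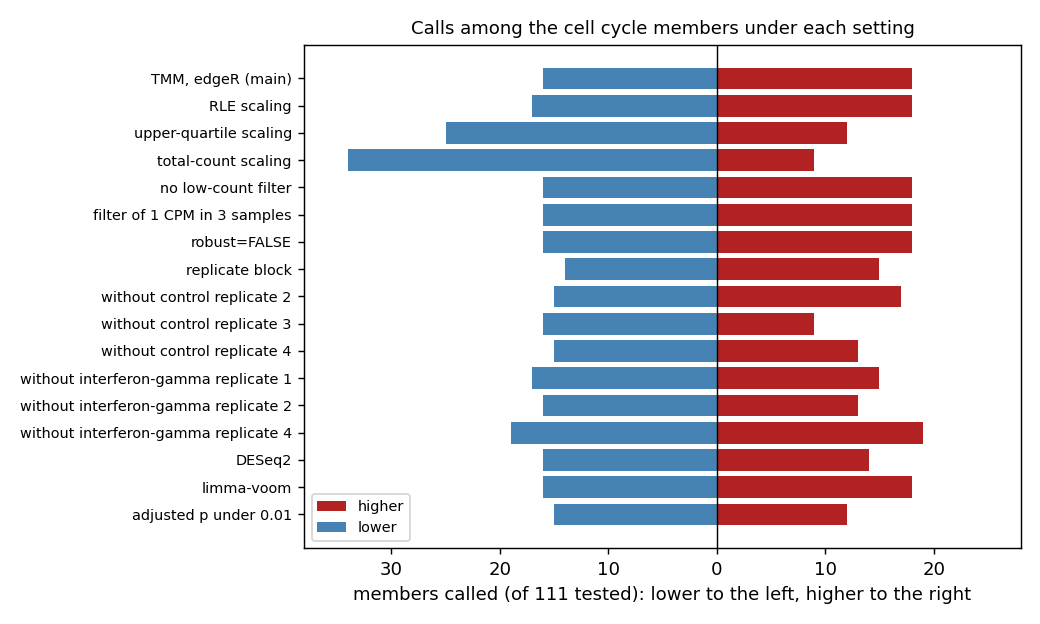
Number of members called lower (blue, to the left) and higher (red, to the right), of 111 tested, under each setting (rows). Falls range from 14 with a replicate block to 34 on total counts, and rises from 9 to 19.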

How the data were processed

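The 6 RNA libraries were read on a DNBSEQ instrument, per the labels' protocols. The deposited tables hold estimated counts per gene; between 6.8% and 7.37% of a library's values are fractional. TPM values were deposited beside them, per the file headers. They are used for levels between genes and for summed levels of the helicase and ligand genes, and no call rests on them. FPKM values were deposited too and entered nothing. The submitters' processing notes list HISAT and HISAT2 as tools, and as builds mm10 and GRCm38.p6, with no role or order. Neither the counting tool nor its strand setting is stated in the sources used here.

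Rounded counts of all genes were fitted with edgeR 4.0.16 (R 4.3.3): filterByExpr (minimum count 10, 11423 of 14701 genes kept), TMM factors, glmQLFit with robust=TRUE and glmQLFTest. P-values were adjusted by Benjamini-Hochberg across the whole table (threshold 0.05). CPM use effective library sizes. Standard errors come from log2 CPM with a prior count of 2, and 95% intervals from limma 3.58.1 on voom values. The model was tested on simulated data. Alternatives were DESeq2 1.42.0, limma-voom, 3 scalings, 2 filters, robust=FALSE, a threshold of 0.01, a replicate block and each library left out.

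Members, function groups and lists were chosen with earlier results of these data known. Genes named by rule are those called at an absolute log2 fold change of at least 0.5, up to 3 called genes of smallest adjusted p per function group, and a fixed list of genes named whatever their values; other genes were named after their values were seen. Gene positions are those of RefSeq on GRCm38.p6, on which all 112 members were placed by gene ID. Fractional counts, which can come from reads split between genes, occurred for Stag1, Mdm2, Cdc14b, Cdc26, Cdk7 and Chek2.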

Additional observations from a re-analysis of the deposited data

How the results depend on the processing

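Of 34 calls, 19 held in all 16 alternatives, and no member's call changed direction. For genes past no threshold, a change of sign with no call was not counted as a change of direction. RLE scaling, no low-count filter, the CPM filter, robust=FALSE and limma-voom lost no call. Among the members, rises numbered 9 on total counts, and falls 25 with upper-quartile scaling and 34 on total counts. The lowest TMM factor of a control library was 1.016 and the highest of a treated library 0.9816. Total-count scaling leaves these factors out. The median log2 fold change then went from 0.013 to -0.059 in members, and from 0.009 to -0.062 over all genes. Whether anything beyond this shared shift adds to the falls was not tested. Over left-out libraries rises ran from 9 to 19, falls from 15 to 19 and all calls from 25 to 38. For proliferation genes outside the entry, 12 in all were called, 7 at a threshold of 0.01 (6 rises and 1 fall). Their rises numbered 6 with upper-quartile scaling and 5 on total counts, and their falls 4 with either. Over left-out libraries 7 to 12 were called, 6 to 9 rises and 1 to 3 falls. For p53 targets, rises numbered 1 on total counts, with DESeq2 and at a threshold of 0.01, and falls 7 with upper-quartile scaling and on total counts. Over left-out libraries 5 to 7 were called, 1 to 3 rises and 4 to 5 falls.

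Replicate numbers 2 and 4 occur in both groups, and the labels do not say what a number marks. Deviations of same-numbered libraries from their group means correlated at 0.128 and -0.0899, so the numbers were not used to pair the libraries. With the number as a block, 15 members rose and 14 fell, with 8 calls lost and 3 gained (Orc4, Skp1a and Fzr1). Under the block, control replicate 3 and treated replicate 1 have no library of the same number to be compared with. They add nothing to the treatment effect, so gains and losses there rest on replicates 2 and 4 of each group. Depth limits the scarce genes most, and Sfn was too low to test.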

Other observations

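The KEGG entry for TGF-beta signalling, looked at after the falls of Smad3 and the ligands were seen, holds 51 tested genes that are not members. Of these 10 rose and 15 fell, or 49.0%, against 38.1% over the whole table; their median log2 fold change was -0.01. The largest falls were those of Bmp2 (log2 -1.80), Grem1 (-1.49, from 366 to 130 CPM) and Thsd4 (-1.06). Smaller falls included the receptors Tgfbr2, at 147 CPM in controls and 105 CPM in treated libraries (log2 -0.48, adjusted p = 1.27e-07), and Tgfbr1, at 28.5 and 25.0 CPM (log2 -0.19, adjusted p = 0.04). The feedback inhibitor Smad7, a target of SMAD3, had 27.2 CPM in controls and 16.8 CPM with treatment (log2 -0.69, adjusted p = 6.78e-07), and Ltbp1, which stores the latent ligand in the matrix, fell from 416 to 295 CPM. The rises include Fst, an antagonist of activins, from 4.32 to 185 CPM (log2 5.42, adjusted p = 1.96e-22), and the kinase Rock1 from 76.3 to 204 CPM. Also risen were Inhbb (log2 0.87), Smad6 (0.51), Fbn1 (0.44), Thbs1 (0.40), Id3 (0.40) and Acvr1b (0.32). All of these genes were named after their values were seen, and the settings above were not run on them.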
